A study of Mus musculus with 22 samples.

Results

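Regions that carry H3K4me1 but no called acetylation were examined in the undifferentiated state of MC3T3-E1, a line of mouse bone-cell precursors that mineralizes in culture. The regions were chosen by the overlap of called ChIP-seq regions. Each H3K4me1 region on chromosomes 1 to 19 and X was kept when it overlapped no H4K5ac, H3K9ac or H3K4me3 region of the same cells by 1 bp or more. Of 50823 H3K4me1 regions, 11939 (23.5%) met this rule and are called unacetylated below. The other 38884 overlapped at least 1 of the 3 lists, nearly always H4K5ac (99.5%). The choice rests on called regions: these unacetylated regions have no acetylation by definition, and other acetylated residues were not analysed here.

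The study profiled VDR, RXR, C/EBPβ, RUNX2 and 5 histone marks by chromatin immunoprecipitation sequencing (ChIP-seq). A single list was deposited per antibody and condition. Undifferentiated cells and cells kept for 15 days with ascorbic acid and glycerol-2-phosphate were compared. All lists used here come from cells exposed for 3 h to calcitriol (100 nM), the active vitamin D hormone, except where an ethanol vehicle list of VDR or RXR is named. Both states are 1 cell line, only the mineralized cultures were homogenized and spun through sucrose, and state and preparation cannot be told apart. The labels name the antibody H4K5Ac and the protocol text H3K5Ac; the labels were followed. H3K4me3 lay within 1 kb of a start at 7 of 8 osteoblast lineage marker genes in undifferentiated cells and at 6 in differentiated cells, with Alpl lacking it in both. Of 26 marker genes of muscle, blood, neuron, adipocyte, chondrocyte, pluripotent and endothelial cells only Col2a1, a cartilage collagen, had it, in undifferentiated cells.

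H3K4me1 is placed at enhancers before and during their use, and acetylation of histone tails is added where an enhancer is active. Regions with H3K4me1 but without acetylation are therefore often called primed. C/EBPβ is a leucine zipper factor of mesenchymal lineages, RUNX2 is the main factor of osteoblast commitment, and VDR binds with its partner RXR to a motif repeated in 1 orientation, its copies 3 bp apart (DR3). The question followed here is which unacetylated regions carry H4K5ac or H3K9ac after differentiation (called a gain below), and with which factors and genes. Each group is 1 list, taken to hold what the authors' replicates share, so no difference has a replicate check and no test was made. Shares are given with exact Clopper-Pearson 95% intervals over regions. These cover counting error only and treat neighbouring regions as independent.

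Sequences are shown first for factor sites inside the regions that gained both acetylation marks, since there the change of state was called with both marks. By rule, the 8 regions with the most factors in differentiated cells were taken, and 5 of them held a factor site, of which 4 are shown. Each sequence is a whole deposited site on the plus strand of mm9. Capitals mark matches, on either strand, to a C/EBP sequence (TTGCNNAA), a RUNX sequence (TGTGGT), an AP-1 sequence (TGANTCA) or, at VDR and RXR sites, DR3 with up to 1 mismatch. Positions count from 1 at the 5′ end.
Cpeb4 region, chr11:31724626-31724826: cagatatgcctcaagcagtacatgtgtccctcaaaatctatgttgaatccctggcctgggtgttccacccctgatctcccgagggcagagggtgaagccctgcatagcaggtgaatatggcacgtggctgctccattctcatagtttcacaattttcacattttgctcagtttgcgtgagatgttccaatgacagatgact
Actn4 region, chr7:29686259-29686459: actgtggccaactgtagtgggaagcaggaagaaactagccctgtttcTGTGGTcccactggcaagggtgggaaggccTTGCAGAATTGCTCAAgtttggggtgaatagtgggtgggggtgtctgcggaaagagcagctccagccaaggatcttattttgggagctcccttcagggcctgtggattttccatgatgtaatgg
Ptprr region, chr10:115634505-115634705: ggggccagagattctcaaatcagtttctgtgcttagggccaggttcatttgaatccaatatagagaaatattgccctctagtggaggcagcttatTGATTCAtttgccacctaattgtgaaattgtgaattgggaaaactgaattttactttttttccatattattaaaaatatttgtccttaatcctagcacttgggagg
AW555464 region, chr12:113945298-113945498: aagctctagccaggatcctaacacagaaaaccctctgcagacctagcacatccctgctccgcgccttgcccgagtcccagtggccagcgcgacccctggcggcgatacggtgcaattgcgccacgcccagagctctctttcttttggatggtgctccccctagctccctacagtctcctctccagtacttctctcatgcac
Each name is that of the protein-coding gene with the nearest start. The Actn4 site held 1 RUNX match at position 48 and 2 adjoining C/EBP matches at positions 78 and 86, and both C/EBPβ and RUNX2 were called there in differentiated cells and neither in undifferentiated cells. The Ptprr site held an AP-1 match at position 96. The Cpeb4 and AW555464 sites held none of the searched letters, although C/EBPβ was called at both in both states, and RXR and RUNX2 joined it at the Cpeb4 site in differentiated cells.

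Further sites were chosen after their values had been seen. They are the sites of the only 2 unacetylated regions with VDR in differentiated cells, and 1 site in a gained region near the mineralization gene Ank.
Nxt1 region, VDR, chr2:148452821-148453021: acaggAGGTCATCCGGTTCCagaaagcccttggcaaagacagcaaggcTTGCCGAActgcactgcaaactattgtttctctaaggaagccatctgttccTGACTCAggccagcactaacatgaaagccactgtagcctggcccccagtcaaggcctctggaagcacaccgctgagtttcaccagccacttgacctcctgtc
Daglb region, VDR, chr5:144195379-144195579: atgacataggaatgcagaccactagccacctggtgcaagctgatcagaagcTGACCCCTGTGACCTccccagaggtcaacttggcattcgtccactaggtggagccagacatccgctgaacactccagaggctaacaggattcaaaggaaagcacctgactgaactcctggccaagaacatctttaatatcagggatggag
Ank region, C/EBPβ, chr15:27427997-27428197: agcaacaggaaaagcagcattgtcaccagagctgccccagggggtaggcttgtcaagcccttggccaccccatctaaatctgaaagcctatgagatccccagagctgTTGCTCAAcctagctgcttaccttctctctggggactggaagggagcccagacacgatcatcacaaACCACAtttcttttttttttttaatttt
Both VDR sites held a DR3 match, at position 6 near Nxt1 and position 52 near Daglb. The Daglb site had VDR and RXR in both states, and its region of 1271 bp gained H4K5ac over 1232 bp. The Nxt1 site had none of the factors in undifferentiated cells and all of VDR, RXR, C/EBPβ and RUNX2 in differentiated cells, yet its region of 3364 bp, 45.4 kb from the start of Nxt1, gained neither acetylation mark. The Ank site held a C/EBP match at position 108 and a RUNX match at position 174, and C/EBPβ was called there in differentiated cells only. Another C/EBPβ site in a gained region of Ank, called in both states and not printed, held none of the searched letters.

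The unacetylated regions were narrow and had low scores. Their median width was 2177 bp (quartiles 1623 and 3202), against 5361.5 bp for the other H3K4me1 regions, and together they covered 32.5 of 342 Mb. Their median deposited score was 14.45 against 44.9; no source used here says what the score measures. Most lay away from promoters: 51.9% (51.0 to 52.8) were intergenic, 41.9% (41.0 to 42.8) intronic, 2.33% (2.07 to 2.62) exonic and 3.90% (3.56 to 4.27) within 1 kb of a start. In the other H3K4me1 regions the promoter share was 13.4% (13.1 to 13.8). H3K36me3, which is laid down along transcribed genes, overlapped 19.6% (18.9 to 20.3) of the unacetylated regions, 43.3% (42.8 to 43.8) of the other regions and 37.7% of all H3K4me1 regions. With H3K36me3 of differentiated cells it was 17.1% (16.4 to 17.8) of the unacetylated and 32.4% of all regions. The median distance to the nearest region of the 3 lists was 10329 bp (quartiles 4468.5 and 25547). Around the 1 bp limit of the rule, 10 unacetylated regions lay within 100 bp of such a region and 3 of them were acetylated in differentiated cells. Of 8 regions left out for an overlap of at most 100 bp, 4 were.

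C/EBPβ was the factor found most often in unacetylated regions. In undifferentiated cells it was called in 757 of 11939 regions (6.34%, 5.91 to 6.79), against 22.5% of all H3K4me1 regions. RUNX2 was called in 162 (1.36%, 1.16 to 1.58; all regions 16.8%), VDR in 48 (0.402%, 0.297 to 0.533; all regions 9.73%) and RXR in 42 (0.352%, 0.254 to 0.475; all regions 10.5%). Without hormone, VDR was called in 1 region (all regions 1.51%) and RXR in 43 (all regions 10.8%). Counted per length, C/EBPβ had 24.1 sites per Mb of unacetylated region and 51.5 per Mb of other H3K4me1 region. For RUNX2 these densities were 5.02 and 37.3, for RXR 1.32 and 23.8, and for VDR 1.48 and 21.6. The density of C/EBPβ thus differed by the smallest ratio of the 4 factors.

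A wider region can hold more sites, so regions of like width were compared in 4 classes that each hold about as many unacetylated regions. In the narrowest class, up to 1623 bp, C/EBPβ lay in 3.15% of unacetylated and 5.26% of other regions. RUNX2 lay in 0.335% and 1.30%, RXR in 0.134% and 0.721%, and VDR in 0.134% and 1.01%. In the widest class, 3203 to 23654 bp, the C/EBPβ shares were 11.1% and 30.4%, and the RUNX2 shares 2.08% and 24.3%. The unacetylated regions had the lower share of each factor in each class. The regions within the widest class still differ in width between the sets.

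**Figure D1:**
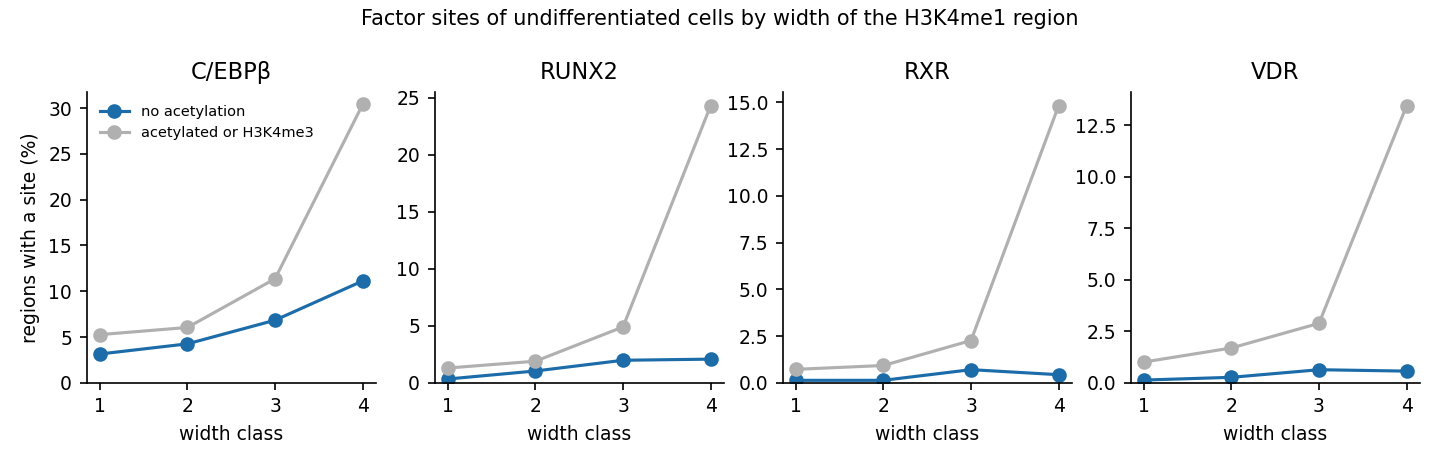
Share of H3K4me1 regions of undifferentiated cells (percent, y axis) with a site of each factor, by width class of the unacetylated regions (x axis, 1 narrowest). Blue points are unacetylated regions and grey points the other H3K4me1 regions of the same width range; the y axes differ between panels. The grey points lie above the blue ones in each panel, from 5.26% against 3.15% for C/EBPβ in the narrowest class to 30.4% against 11.1% in the widest.

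Most unacetylated regions with C/EBPβ held none of the other factors, which were rare in unacetylated regions as a whole. Of the 757 regions with C/EBPβ in undifferentiated cells, 714 (94.3%, 92.4 to 95.9) had none of VDR, RXR and RUNX2. Of the 10688 other H3K4me1 regions with C/EBPβ, 45.9% (45.0 to 46.9) had none of them. In the narrowest class of width the shares were 97.9% (92.5 to 99.7, 94 regions) and 90.4% (81.2 to 96.1, 73 regions), with overlapping intervals. In the third class, 2178 to 3202 bp, they were 92.2% (87.6 to 95.5) and 81.7% (78.4 to 84.6). Of the 162 with RUNX2, 33 (20.4%, 14.5 to 27.4) also had C/EBPβ and 22 (13.6%, 8.71 to 19.8) RXR, against 57.0% and 46.8% of the other H3K4me1 regions with RUNX2. In differentiated cells 694 of 787 unacetylated regions with C/EBPβ (88.2%, 85.7 to 90.4) had no other factor, against 53.0% (52.0 to 53.9) of the other H3K4me1 regions with C/EBPβ. Within the unacetylated regions, the other factors were more frequent where C/EBPβ was called than over all 11939. In undifferentiated cells RUNX2 lay in 4.36% of the 757 against 1.36% of all, VDR in 1.72% against 0.402% and RXR in 1.19% against 0.352%. In differentiated cells RUNX2 lay in 8.39% of the 787 against 1.59%, and RXR in 6.61% against 0.972%. Width was not matched here.

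VDR, RUNX2 and C/EBPβ sites inside unacetylated regions more often held the factor's own sequence than those in other H3K4me1 regions, while for RXR sites and DR3 the intervals overlapped. A DR3 match was found at 18 of 48 VDR sites in unacetylated regions (37.5%, 24.0 to 52.6), at 13.5% (12.7 to 14.4) of 6691 VDR sites in other H3K4me1 regions and at 43.7% (37.6 to 49.9) of 261 VDR sites outside H3K4me1. For RUNX2 sites and TGTGGT the shares were 81.0% (74.1 to 86.7) of 163, 54.0% (53.1 to 54.9) of 11556 and 57.3% (51.5 to 63.1) of 293. For C/EBPβ sites and TTGCNNAA they were 57.0% (53.4 to 60.5) of 783, 40.0% (39.3 to 40.8) of 15969 and 67.3% (64.5 to 69.9) of 1198. Windows of the same length at the centre of all H3K4me1 regions held DR3 in 1.31%, TGTGGT in 16.3% and TTGCNNAA in 8.81% of cases. The same order of unacetylated over other regions was seen for RUNX2 and C/EBPβ sites of differentiated cells, with 81.7% (75.4 to 86.9) against 57.7% (56.6 to 58.8) and 57.8% (54.3 to 61.2) against 42.4% (41.6 to 43.2). For RXR sites and DR3 the shares were 14.0% (5.3 to 27.9) of 43 against 6.69% (6.13 to 7.29) in undifferentiated cells and 6.72% (2.95 to 12.8) of 119 against 5.34% (4.86 to 5.87) in differentiated cells.

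**Figure D2:**
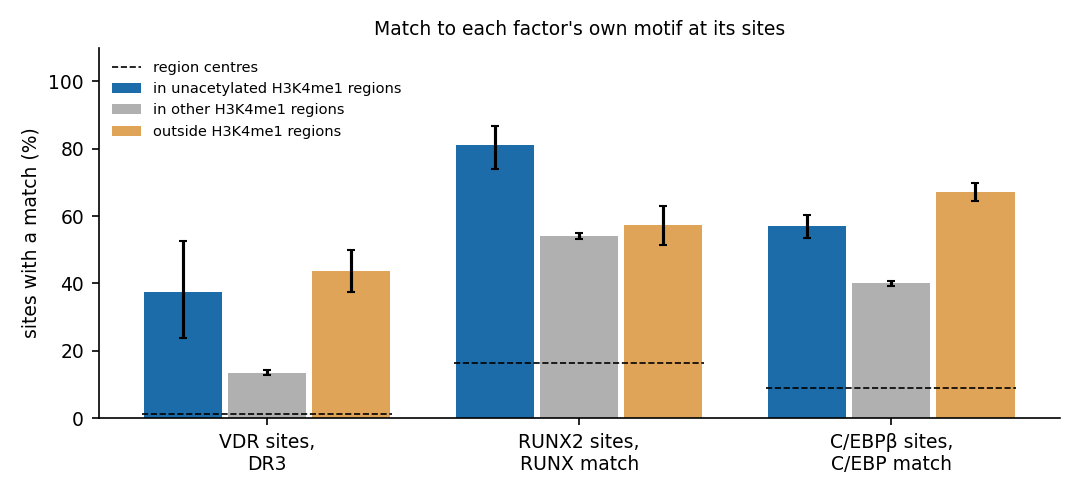
Share of factor sites of undifferentiated cells (percent, y axis) that hold a match to the factor's own sequence, for VDR, RUNX2 and C/EBPβ sites (x axis). Bars are sites in unacetylated H3K4me1 regions, in other H3K4me1 regions and outside H3K4me1 regions, error bars are 95% binomial intervals, and dashed lines give the share in equally long windows at region centres. Bars of unacetylated regions (37.5%, 81.0% and 57.0%) stand above those of other H3K4me1 regions (13.5%, 54.0% and 40.0%).

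The AP-1 sequence TGANTCA, bound by Fos and Jun proteins, was present within 501 bp around the centre of 29.7% of unacetylated and 19.2% of other H3K4me1 regions. Since the centre of a wide region need not be its binding element, regions of like width were set side by side. The shares were 33.7% against 24.8% in the narrowest class, 34.6% against 29.5% in the second, 30.9% against 24.4% in the third and 19.6% against 17.3% in the widest. Among the unacetylated regions, it was present in 23.1% of those with a gain and 30.4% of those without. Width was not matched in that comparison. Regions with a gain had a median width of 2458 bp and a median GC content of 47.3%, against 2145 bp and 43.9% without. The RUNX sequence TGTGGT was also more frequent in unacetylated regions of each width class, from 43.1% against 38.3% in the narrowest to 36% against 33.8% in the widest. No Fos or Jun list was analysed here.

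After differentiation, most unacetylated regions either kept H3K4me1 without acetylation or had none of H3K4me1, H4K5ac and H3K9ac. H3K4me1 without H4K5ac or H3K9ac was called in 6021 of 11939 (50.4%, 49.5 to 51.3), and none of these 3 marks in 4738 (39.7%, 38.8 to 40.6). H3K4me1 with acetylation was called in 1082 (9.06%, 8.55 to 9.59) and acetylation without H3K4me1 in 98 (0.821%, 0.667 to 0.999). H3K4me1 was thus kept in 59.5% (58.6 to 60.4), against 86.4% of all H3K4me1 regions of undifferentiated cells. This share varied with width. In the narrowest class it was 41.2% of unacetylated and 71.9% of other H3K4me1 regions, and in the widest 72.5% and 97.7%. H3K4me3, the promoter mark, was gained in 1 region (all regions 17.2%).

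H4K5ac or H3K9ac was gained in 1180 unacetylated regions (9.88%, 9.35 to 10.4). Over all H3K4me1 regions of undifferentiated cells, most of them acetylated already, 64.9% overlapped either mark in differentiated cells. H4K5ac was gained in 1085 (9.09%, 8.58 to 9.62; all regions 64.1%) and H3K9ac in 147 (1.23%, 1.04 to 1.45; all regions 37.4%), with both marks in 52. The share with a gain was 5.40% when the lowest 25% of the differentiated acetylation lists by score were left out, and that of H3K9ac was then 0.201%.

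The reverse lookup gave a different balance of the marks. In differentiated cells 18714 of 53858 H3K4me1 regions (34.7%) had no H4K5ac, H3K9ac or H3K4me3, with a like median width of 2176.5 bp. H4K5ac had been present in undifferentiated cells at 39.2% (38.5 to 39.9) of these, against the 9.09% gained in the forward direction. H3K9ac had been present at 0.363% (0.282 to 0.460), against 1.23%. The full lists differ in the same sense: 41779 H4K5ac regions in undifferentiated and 32202 in differentiated cells, and 17189 and 22868 H3K9ac regions. The part of list length in these shares was not tested.

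**Figure D3:**
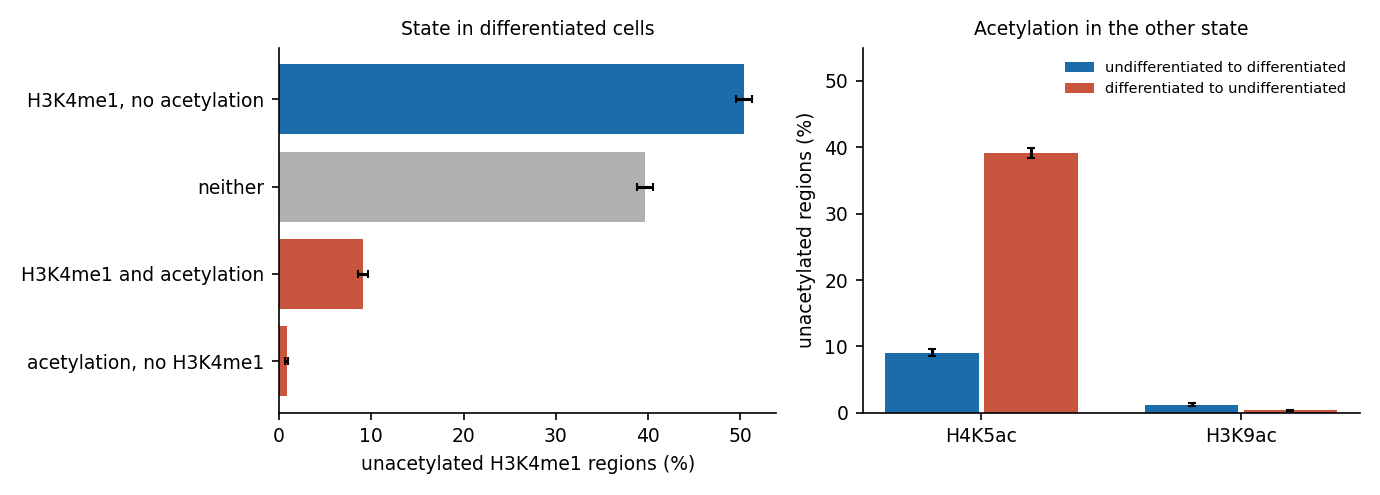
Left, share of the 11939 unacetylated H3K4me1 regions (percent, x axis) in each state of differentiated cells. Right, share of unacetylated H3K4me1 regions of 1 state (percent, y axis) with H4K5ac or H3K9ac in the other state; error bars are 95% binomial intervals. The classes use H3K4me1, H4K5ac and H3K9ac and not H3K36me3. H3K4me1 without acetylation (50.4%) and neither (39.7%) make up most of the left panel, and on the right H4K5ac is 9.09% forward and 39.2% in reverse.

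The 2 marks were gained in different places. Of the 147 regions that gained H3K9ac, 43 (29.3%, 22.0 to 37.3) lay within 1 kb of a start, 62.6% had 10 or more CpG dinucleotides in 501 bp around their centre, and the median distance to a start was 5761 bp. Of the 1033 regions that gained H4K5ac without H3K9ac, 42 (4.07%, 2.95 to 5.46) lay within 1 kb of a start, 13.2% were that rich in CpG, and the median distance was 26074 bp. In the 10759 regions without a gain these values were 3.54% (3.2 to 3.91), 9.09% and 25371 bp. Intronic positions held 46.2% (43.1 to 49.3) of the H4K5ac and 18.4% (12.5 to 25.6) of the H3K9ac gains. On chromosome X 16 of 329 unacetylated regions (4.86%) had a gain; the autosomes lay between 7.02% and 14.6%.

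Gains were more frequent near chromatin that was already acetylated. Within 1 kb of an undifferentiated H4K5ac, H3K9ac or H3K4me3 region, 33 of 130 unacetylated regions had a gain (25.4%, 18.2 to 33.8). The share was 13.5% (12.7 to 14.4) at 1 to 10 kb, 6.48% (5.84 to 7.17) at 10 to 100 kb and 2.78% (1.63 to 4.41) of 612 regions beyond 100 kb. C/EBPβ of undifferentiated cells had the opposite order, with 3.08% (0.845 to 7.69), 4.90% (4.35 to 5.49), 7.42% (6.73 to 8.14) and 10.9% (8.59 to 13.7). The median width lay between 2149 and 2212 bp in the 4 classes.

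**Figure D4:**
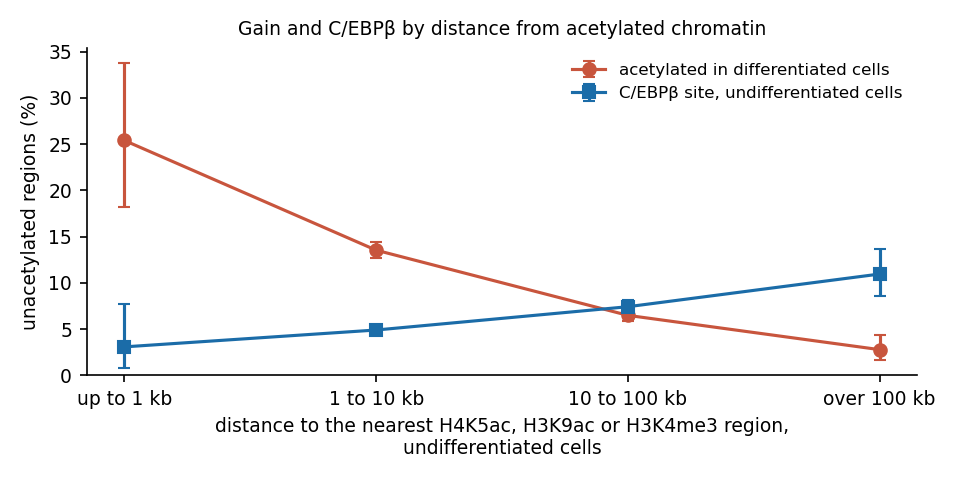
Share of unacetylated H3K4me1 regions (percent, y axis) that are acetylated in differentiated cells (red) and that hold a C/EBPβ site of undifferentiated cells (blue), by distance to the nearest H4K5ac, H3K9ac or H3K4me3 region of undifferentiated cells (x axis); error bars are 95% binomial intervals. From the nearest to the farthest class, acetylation goes from 25.4% to 2.78% and C/EBPβ from 3.08% to 10.9%.

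Of the 1180 gains, 473 (40.1%, 37.3 to 42.9) lay in a differentiated acetylated region that also covered acetylation of undifferentiated cells. The other 707 (59.9%, 57.1 to 62.7) lay only in regions with no such predecessor, and 141 of the 147 H3K9ac gains were among these. Seen from the acetylated side, 1252 H4K5ac regions of differentiated cells had no earlier acetylation, and 599 of them (47.8%, 45.0 to 50.7) overlapped an unacetylated H3K4me1 region. Among 292 such H3K9ac regions, 141 did (48.3%, 42.4 to 54.2). A similar number, 568 H4K5ac and 133 H3K9ac regions, arose where no H3K4me1 had been called in undifferentiated cells. Of the regions with earlier acetylation, 417 of 30950 H4K5ac (1.35%) and 6 of 22576 H3K9ac regions (0.0266%) overlapped an unacetylated one. The rule weighs on this contrast, since 99.5% of the other H3K4me1 regions overlapped H4K5ac of undifferentiated cells. A region without earlier acetylation can meet those only outside their acetylated part, so no preference can be read from these shares.

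Regions with a gain, most of them of H4K5ac, more often held factor sites of differentiated cells than regions without. C/EBPβ was called in 138 of 1180 gained regions (11.7%, 9.92 to 13.7) and in 6.03% (5.59 to 6.50) of those without a gain; over all H3K4me1 regions the share was 20.9%. RUNX2 was called in 53 (4.49%, 3.38 to 5.83) and 1.27% (1.07 to 1.5; all regions 11.6%), and RXR in 39 (3.31%, 2.36 to 4.49) and 0.716% (0.565 to 0.894; all regions 11.1%). VDR was called in 1 region of each kind (all regions 1.48%). Without hormone, RXR was called in 66 unacetylated regions (0.553%, 0.428 to 0.703; all regions 7.21%) and VDR in 0 of 11939, which allows up to 0.0309% (all regions 0.425%). Of the H3K4me1 regions outside the unacetylated set, 34.6% (34.2 to 35.1) held at least 1 factor of differentiated cells. At least 1 factor was present in 15.4% of gained regions, and 998 of the 1180 had none of them. The difference from regions without a gain was 8.16 percentage points (6.04 to 10.3). It was 13.1 points when the lowest 25% of the differentiated acetylation lists by score were left out and 5.19 points in 1 kb around the centre.

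This order held in each class of width. At least 1 factor of differentiated cells was present in 9.80% of gained and 3.74% of other unacetylated regions in the narrowest class, and in 11.1% and 5.62%, 15.8% and 8.48%, and 21.0% and 11.5% in the following classes. The order is not particular to gains. Among the other H3K4me1 regions, those acetylated in differentiated cells held a factor in 8.83% and those not acetylated in 4.55% of the narrowest class. In the following classes the shares were 12.2% and 6.16%, 19.7% and 9.06%, and 42.6% and 12.3%. Gains that extended existing acetylation held a factor in 18% (14.6 to 21.7) and those without a predecessor in 13.7% (11.3 to 16.5), with overlapping intervals. Regions that gained H3K9ac held one in 8.84%, those that gained H4K5ac without H3K9ac in 16.4%, and those without a gain in 7.27%. C/EBPβ of differentiated cells was called in 9 of the 147 regions with H3K9ac (6.12%, 2.84 to 11.3), near the 6.03% without a gain. RUNX2 was called in 4 (2.72%, 0.746 to 6.82), an interval that includes the 1.27% without a gain.

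Sites of C/EBPβ, RUNX2 and RXR called in undifferentiated cells separated the regions less. C/EBPβ was called there in 7.03% (5.64 to 8.65) of gained regions and 6.26% (5.81 to 6.74) of the others, and RUNX2 in 2.03% (1.31 to 3.01) and 1.28% (1.08 to 1.51), with overlapping intervals. VDR with calcitriol was called in 11 gained regions (0.932%, 0.466 to 1.66) and in 0.344% (0.242 to 0.474) of the others, and RXR in 9 (0.763%, 0.349 to 1.44) and 0.307% (0.211 to 0.430). For VDR the states cannot be compared, since it was called in 1 region of each kind in differentiated cells.

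Regions were also grouped by the state in which a site was called. Most gains are of H4K5ac, and the H3K9ac counts are given apart. Where C/EBPβ was called in differentiated cells only, 70 of 300 unacetylated regions gained acetylation (23.3%, 18.7 to 28.5). Where it was called in both states 68 of 487 did (14.0%, 11.0 to 17.4), where it was called in undifferentiated cells only 15 of 270 did (5.56%, 3.14 to 9.0), and with no C/EBPβ 9.44% (8.89 to 10.0) did. Of the 300 regions with C/EBPβ in differentiated cells only, 1 (0.333%) gained H3K9ac, against 8 of 487 (1.64%) with it in both states, 3 of 270 (1.11%) with it in undifferentiated cells only and 1.24% with none. For gains of either mark, the interval of the regions that lost C/EBPβ lay below that of the regions that acquired or kept it.

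For RUNX2 too, sites called in differentiated cells only went with the highest share. Where it was called in differentiated cells only, 42 of 130 regions gained acetylation (32.3%, 24.4 to 41.1), against 11 of 60 (18.3%, 9.52 to 30.4) with RUNX2 in both states, 13 of 102 (12.7%, 6.96 to 20.8) with it in undifferentiated cells only and 9.56% (9.04 to 10.1) with none. For RXR the shares were, in the same order, 34 of 97 (35.1%, 25.6 to 45.4), 5 of 19 (26.3%, 9.15 to 51.2), 4 of 23 (17.4%, 4.95 to 38.8) and 9.64% (9.11 to 10.2). For both RUNX2 and RXR the interval of sites called in differentiated cells only overlapped that of sites called in both states. For RXR it also overlapped that of sites called in undifferentiated cells only. H3K9ac was gained in 2 of the 130 regions with RUNX2 in differentiated cells only and in 4 of the 102 with RUNX2 in undifferentiated cells only. With VDR in undifferentiated cells only, 10 of 47 regions had a gain (21.3%, 10.7 to 35.7), none of them of H3K9ac, against 9.83% (9.3 to 10.4) with no VDR. The single region with VDR in both states had a gain and the single one with VDR in differentiated cells only had none. Median widths for C/EBPβ, RUNX2 and RXR ran from 2515 to 3124 bp for sites called in differentiated cells only and from 2133 to 2169.5 bp for regions with no site. These groups also differed in H3K4me1 of differentiated cells. It was called in 77.0%, 93.8% and 84.5% of regions with the site in differentiated cells only. With no site the shares were 58.2%, 58.6% and 59.2%. With RUNX2 in undifferentiated cells only it was 91.2%. With 1 factor in differentiated cells the share with a gain was 16.9% (14.4 to 19.6, 859 regions), with 2 factors 31.2% (21.3 to 42.6, 80 regions) and with 3 or 4 factors 48.0% (27.8 to 68.7, 25 regions). The median width of these classes was 2710, 2968 and 3791 bp, against 2138 bp without a factor.

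**Figure D5:**
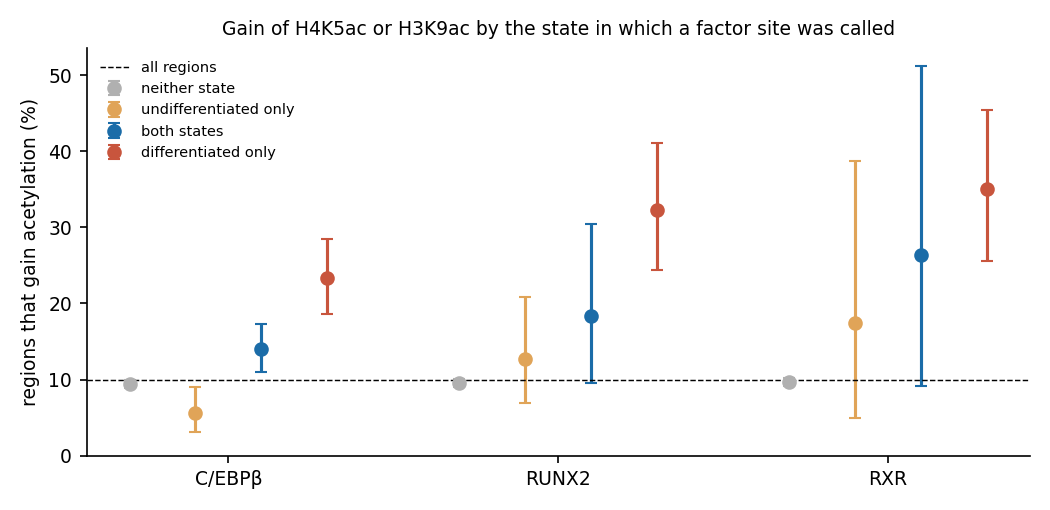
Share of unacetylated H3K4me1 regions that gain H4K5ac or H3K9ac (percent, y axis) for C/EBPβ, RUNX2 and RXR (x axis), by the state in which a site of the factor was called; error bars are 95% binomial intervals and the dashed line is the share of all these regions (9.88%). For each factor the point for sites called in differentiated cells only is the highest, at 23.3%, 32.3% and 35.1%. For RUNX2 and RXR its interval overlaps that of sites called in both states.

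The 8 regions taken by rule among those with both marks give single cases. The Cpeb4 region, chr11:31722213-31728734, 46.7 kb upstream of this translational regulator gene, was covered by H4K5ac over all of its 6522 bp and by H3K9ac over 3456 bp in differentiated cells. The Actn4 region, chr7:29685816-29689955, lies in an intron of this actin crosslinker gene, 4.5 kb downstream of a start, and was covered by H4K5ac over all of its 4140 bp and by H3K9ac over 3968 bp. These were the ones with more than 1 factor. The Tcf7 region, chr11:52084344-52088631, in an intron of this Wnt effector gene 9.3 kb downstream of a start, had H4K5ac over its whole 4288 bp and H3K9ac over 3914 bp with no called factor in either state. Of the 50 regions with both marks outside chromosome 18, 45 had no factor in differentiated cells. The share was like that over all unacetylated regions, of which 10975 of 11939 had none.

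For the gene groups, a region was given to each protein-coding gene with a start within 100 kb of its centre. Of 22208 such genes, 13799 (62.1%) had an unacetylated region and 2842 (12.8%) a region with a gain, and a region can count for several genes. The gene lists were chosen with earlier results of these data known. Genes of most lists also had more H3K4me1 regions of any kind than the median gene, which had 7.

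Bone matrix and mineralization genes had a gain at 6 of 20 (30.0%), with 19 having an unacetylated region. The 9 pairs of gene and gained region came from 7 regions and made up 23.7% of the pairs of these genes with unacetylated regions, against 11.2% over all genes. That share was similar in some lists of other kinds, with 23.1% for adipocyte (6 of 26 pairs) and 22.2% for housekeeping genes (2 of 9). It was lower in others, among them BMP and TGF-beta (7.5%), muscle (6.67%) and blood genes (0 of 22 pairs). Ank, which exports pyrophosphate and so limits mineral growth, had 4 gained regions among its 5 unacetylated ones, all in introns, and 2 of them held a C/EBPβ site of differentiated cells. A single intergenic region of 3441 bp, chr5:104692831-104696271, counted for Dmp1, Ibsp and Mepe, neighbouring genes of mineralized matrix glycoproteins. It lies 62.9 kb downstream of the start of Dmp1 and 33.6 kb upstream of that of Ibsp, and was covered by H4K5ac throughout, with no called factor. Ifitm5, an osteoblast membrane protein gene, had 1 region 40.6 kb upstream. Smpd3, the other gene of the list with a gain, was named after its value was seen. Among osteocyte genes 3 of 8 (37.5%) had a gain, of which Dmp1 and Mepe share the region above and Dstn is an actin-severing factor gene. When the lowest 25% of H3K4me1 regions by score were left out, 1 of the 20 bone matrix genes had a gain.

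Genes of Wnt signalling, a pathway that drives osteoblast formation, had a gain at 8 of 20 (40.0%), in 10 regions. Gained regions made up 25.6% of their pairs with unacetylated regions. Lef1 and Tcf7, the nuclear effectors, had 2 each. The Lef1 regions lie 84.7 kb upstream and 26.4 kb downstream of the nearest start, and the Tcf7 ones 9.3 kb downstream and 15.6 kb upstream. Wnt7b, a ligand, had 2, at 48.6 and 99.3 kb downstream, and the farther of them held a RUNX2 site in both states. Axin2, a feedback inhibitor, had 1 at 4.3 kb downstream, Dkk3 had 1 at 40.4 kb downstream, and Notum, a secreted Wnt lipase, had 1 at 61.2 kb upstream that also gained H3K9ac and lies at the promoter of another gene. Wnt1 and Wnt10b, outside the naming rule, were the other two. The count was 2 without the lowest 25% of H3K4me1 regions by score, 4 without the lowest 25% of the differentiated acetylation lists, and 3 for regions at least as wide as the median. Lrp5, a Wnt co-receptor placed in the vitamin D list, had 1 region 34.4 kb upstream and was the only one of 14 genes of that list with a gain (7.14%).

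Adipocyte genes had a gain at 3 of 12 (25.0%). Lpl, the lipoprotein lipase gene, had a gain in all 3 of its unacetylated regions, 1 of which spans a start and was covered by H4K5ac over its 4976 bp. Zfp423, a zinc finger factor of preadipocytes, had 2 of 6, and Cebpa 1 of 2. Chondrocyte genes had a gain at 2 of 12 (16.7%), with 2 regions at Runx3. BMP and TGF-beta genes had a gain at 2 of 23 (8.70%), where Bmp6 had 2, at 34.3 kb upstream and 59.0 kb downstream, and extracellular protease and matrix genes at 2 of 21 (9.52%), the collagen genes Col5a1 and Col6a3. Osteoblast transcription factor genes had a gain at 2 of 12 (16.7%), among them Dlx3 with 1 region 46.0 kb downstream. Osteoclast coupling genes had a gain at 1 of 10. Gains near genes of other lineages were found at 1 of 10 muscle genes (Des), 1 of 9 neuronal genes (Dlg4), 0 of 10 blood genes and 2 of 10 housekeeping genes (Pgk1 and Polr2a). The regions counted for Dlg4, Polr2a and Dstn lie at promoters of other genes. The region 36.7 kb upstream of Pgk1 held C/EBPβ and RXR sites of differentiated cells.

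Some list genes had several unacetylated regions and no gain. Over all genes, 11.2% of the pairs of gene and unacetylated region had a gain. The genes named here were picked by rule for having none, so no lineage pattern can be read from them. Runx1 and Tal1, blood-forming factor genes, had 6 each, as did Syt1, a synaptic vesicle gene, while Ebf2 and Myf5, factor genes of adipocyte precursors and muscle, had 5 each. Of the pairs of the 10 blood genes with H3K4me1 regions, 22 (33.8%) were with unacetylated ones. The share was 40.6% for the 9 neuronal genes, against 21.0% over all genes and 18.4% over bone matrix genes.

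Over all protein-coding genes, the largest numbers of gained regions fell in a few stretches. Wnk2, a kinase gene on chromosome 13, had a gain in all 6 of its unacetylated regions, 3 of them 67577 to 73713 bp from the nearest acetylated or H3K4me3 region of undifferentiated cells, and its neighbour Ninj1 shared 5 of these. Ctnnb1, the gene of β-catenin, had 5 of 6, among them intervals of 8810 and 8526 bp at 3.1 and 47.8 kb downstream of a start. Sectm1a, Tex19.1, Tex19.2 and Uts2r on chromosome 11 shared the same 5 regions. Tmtc1 had 5 of 8, Gm355 5 of 9 and Actbl2 4 of 7. The gained regions at Tmtc1, Gm355, Actbl2 and the chromosome 11 stretch each lay in a differentiated region that also covered acetylation of undifferentiated cells. H3K9ac was gained in none of the regions at these 10 genes.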

How the data were processed

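The 22 deposited lists of regions were read as they are. Per the submitters' processing notes, the tools were Bowtie and HOMER and the build mm9, with versions and thresholds not given in the sources used here. Region names in the deposited files count merged peaks, so a list was taken to hold what the authors' replicates share. The deposited score of the histone lists has no stated meaning and was used only within a list; in the deposited factor lists the score is 0 and all sites have 1 width. The lists hold no read counts, so the depth is unknown. Only chromosomes 1 to 19 and X entered, with the NCBIM37 (mm9) sequence and GENCODE vM1 protein-coding genes. Overlap meant 1 bp. Intervals are exact Clopper-Pearson (scipy 1.17.1), except the interval of the difference in percentage points, which is a normal approximation. Overlap counting was tested on simulated intervals. The named genes were up to 25 list genes and the 10 genes of all with the most gained regions, 8 single regions and the 5 list genes with the most unacetylated regions and no gain. Map2 was absent from the annotation. The regions and gene lists were chosen with earlier results of these data known. Promoter sequences of another build were not used. The sequences of 2 sites are not reported here.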

Additional observations from a re-analysis of the deposited data

How the results depend on the processing

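Depth, list length and the deposited thresholds set which regions count as unacetylated, and no replicate lists were used. Alternatives for the C/EBPβ and RUNX2 shares and the gene counts were chosen after seeing the data. Without the lowest 25% of H3K4me1 regions by score, 4733 regions were unacetylated, 11.8% of them gained acetylation and 10.8% H4K5ac. Without the lowest 25% of the differentiated acetylation lists, 5.40% gained acetylation, 5.29% H4K5ac and 0.201% H3K9ac, and the difference in factor sites was 13.1 points. Regions at least as wide as the median gained acetylation in 12.0% and H4K5ac in 11.0% of cases. Among regions that kept H3K4me1 the shares were 15.2%, 13.9% and, for H3K9ac, 2.03%, and the difference in factor sites was 5.75 points. In 1 kb around the centre that difference was 5.19 points. The cause of these shifts was not tested. A distance of at least 1 kb from acetylation, an overlap of at least 50% and a rule without H3K4me3 moved none of these values beyond its interval. The C/EBPβ share of undifferentiated cells ran from 4.09% to 10.9%. The gain where C/EBPβ was called in differentiated cells only ran from 20% to 28.1%, and that for RUNX2 from 25.4% to 36.9%. No paired analysis was possible because each group is 1 list.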
